A study of Homo sapiens with 24 samples.

Results

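The departure from additivity was measured for each gene in MV411, a human acute myeloid leukaemia line, treated with the menin-MLL inhibitor MI-503, the FLT3 inhibitor AC220 (quizartinib), or the combination of both. The departure is the mean log2 level with the combination, minus that with MI-503, minus that with AC220, plus that with DMSO. It is 0 when the ratio of the combination to DMSO equals the product of the ratios of the single drugs to DMSO. A positive departure means that the combination left the gene higher than that product predicts, and a negative one that it left the gene lower. Genes were taken when their normalised value was at least 10 in at least 3 of the 12 MV411 libraries, which kept 14421 of 25680 genes. The 12 libraries were those of MV411 among 24 in a series of 3 leukaemia lines.

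The 4 groups held 3 libraries each. The combination was 2.5 µM MI-503 for 3 days with 3 nM AC220 for 24 hours, and the single treatments were 2.5 µM MI-503 for 3 days and 3 nM AC220 for 24 hours. The control was DMSO, for which the labels give no length of exposure. When AC220 was added in relation to MI-503 is not stated either, and the lengths of exposure to the drugs differed within each combined culture. MV411 is 1 established line, known for a fused KMT2A (MLL) gene and for an internal tandem duplication within FLT3. Whether the 3 libraries of a group came from separate cultures is not described, so the p-values measure the spread between these libraries.

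As background, MLL fusion proteins keep HOXA and MEIS1 genes active through the adaptor protein menin, and MI-503 blocks that contact. FLT3 with an internal tandem duplication signals without its ligand through STAT5, RAS-ERK and PI3K-AKT, and through these it keeps biosynthesis and the cell cycle running. In this type of leukaemia, loss of menin-MLL contact or of FLT3 signalling is known to slow division and to let cells mature towards monocytes.

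Between 23168887 and 26596469 reads were assigned to genes per library. Myeloid genes fixed as markers were present in every group, with LYZ the highest of them in each group, and their summed level ran from 228563 to 228841 with the combination, 203097 to 213793 with MI-503, 112095 to 118376 with AC220 and 69306 to 71263 with DMSO. Most of the rise in this sum was LYZ, with a mean of 182474 with the combination and 30030 with DMSO. These markers did not rise together. MEIS1, HOXA9 and FLT3 were lower with the combination than with DMSO, and CSF1R and KIT were higher. The B-cell marker MS4A1, the erythroid marker HBB, and KRT19 and COL1A2 had 0 reads in all 12 libraries. The summed T and NK cell markers, nearly all of it NKG7, were 2255 to 2544 with the combination, 1716 to 1862 with MI-503, 982 to 1048 with AC220 and 878 to 907 with DMSO, and their part in the departures was not tested. In bulk RNA, fewer cells of a type and less RNA per cell cannot be told apart. The values are scaled so that the typical gene keeps its level, so a change of total RNA per cell was not measured.

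By limma across all 14421 genes, with Benjamini-Hochberg adjustment, 6133 genes (42.5%) departed from additivity at an adjusted p under 0.05. Of these, 3014 (20.9% of genes tested) were higher than additive and 3119 (21.6%) were lower. Most departures were small. The median over all genes was -0.02 on the log2 scale, and of genes not at the floor 94.6% lay within 1 of additivity. The floor, set at a group mean under 20 with MI-503 or with AC220, holds genes that a single drug had brought near to no reads, and genes that had few reads with DMSO already, of which some rose with the other drug or with the combination. Away from the floor 12611 genes remained, of which 45.7% departed, 2731 (21.7%) higher and 3028 (24%) lower than additive. Departures of at least 2-fold were less even, with 470 genes higher (3.73%) and 212 lower (1.68%).

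**Figure D1:**
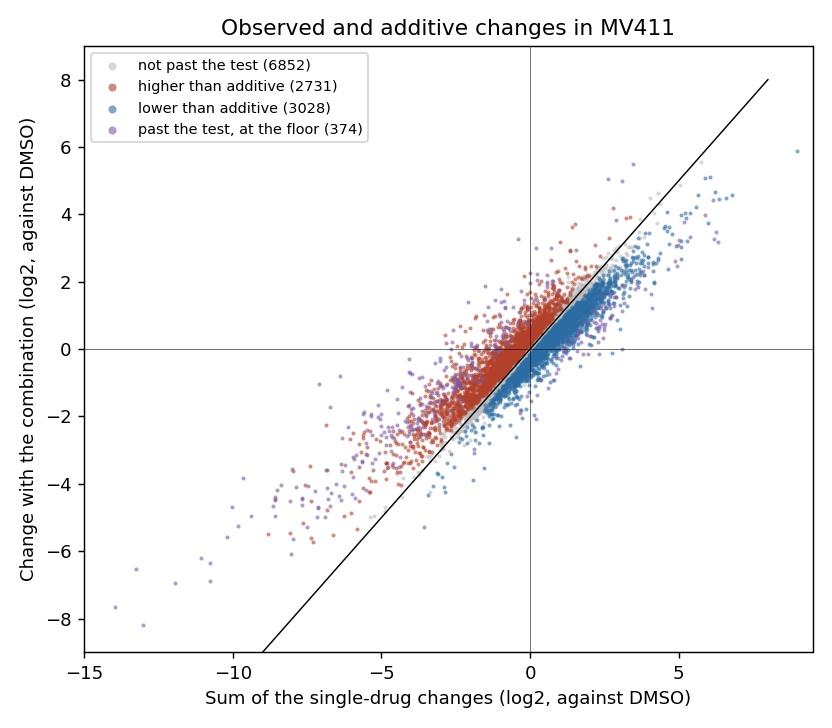
Each point is 1 gene, with the sum of its MI-503 and AC220 changes on the x axis and its change with the combination on the y axis, both in log2 against DMSO, and the black line marks additivity. Red points lay above it and blue points below it past the test, and purple points passed the test at the floor. Genes at the floor that did not pass are not drawn, whatever their level with DMSO.

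Against DMSO, 79.4% of all genes changed with the combination, 60.6% with MI-503 and 74.9% with AC220. These changes describe the departures but share libraries with them and add no independent support. Among the 470 genes that were at least 2-fold higher than additive, 296 were lower than DMSO with each drug alone, and 86 had changed with AC220 only. Among the 212 that were at least 2-fold lower, 157 were higher than DMSO with each drug alone. In both sets the combined change therefore mostly fell short of the sum of the single changes. The opposite case is a gene that both drugs moved one way and the combination moved further than their sum. At 2-fold or more it was seen for 6 genes raised by each drug and 4 lowered by each drug.

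Genes of sterol synthesis departed together. Of 24 tested members, 23 were higher than additive and 1, PMVK, was lower, with a median departure of 1.40 against -0.02 for all genes. The members' median change against DMSO was -1.81 with the combination, -1.34 with MI-503 and -2.04 with AC220, and the sum of the single changes had a median of -3.71. Between the combination and AC220 alone, 10 members were higher and 4 lower, with a median difference of 0.12, where 27.4% of all genes were higher and 28.1% lower. With AC220 alone these genes had already fallen to near the level seen with the combination.

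LSS (lanosterol synthase, chr21:46188446-46228774, hg38 as all positions here), which closes the sterol ring, had normalised values of 814, 698 and 707 with the combination, 1198, 1146 and 1264 with MI-503, 623, 572 and 701 with AC220, against 7607, 7986 and 8116 with DMSO. The combination libraries lay below all MI-503 libraries and 2 of them lay above all AC220 libraries. Additivity predicted 95, and the departure was 2.94 ± 0.0948 (SE; adjusted p = 1.64e-16). HMGCS1, the enzyme that makes the precursor of mevalonate, had 1071, 1099 and 1106 with the combination, 1869, 2046 and 2120 with MI-503, 943, 928 and 1083 with AC220, against 10098, 8422 and 9981 with DMSO. Its departure was 2.39 ± 0.0927 (adjusted p = 2.84e-15), and its difference between the combination and AC220 was 0.15 (adjusted p = 0.0526). DHCR7, the last enzyme of the pathway, departed by 3.34 ± 0.298 (adjusted p = 3.71e-09), and its values with the combination, 76.9 to 102, were above those with AC220, 26.9 to 78.8, except for an overlap between 76.9 and 78.8. SCD, which desaturates fatty acids, had 4441, 4403 and 4401 with the combination against 2520, 2463 and 2986 with AC220, 9692 to 10238 with MI-503 and 34480 to 39224 with DMSO, a departure of 2.62 ± 0.0791. SREBF1, a master regulator of lipid synthesis, departed by 1.06 ± 0.0956 (adjusted p = 4.2e-09). PMVK, a mevalonate-pathway kinase named after its value was seen, departed by -0.30 (adjusted p = 0.0119).

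**Figure D2:**
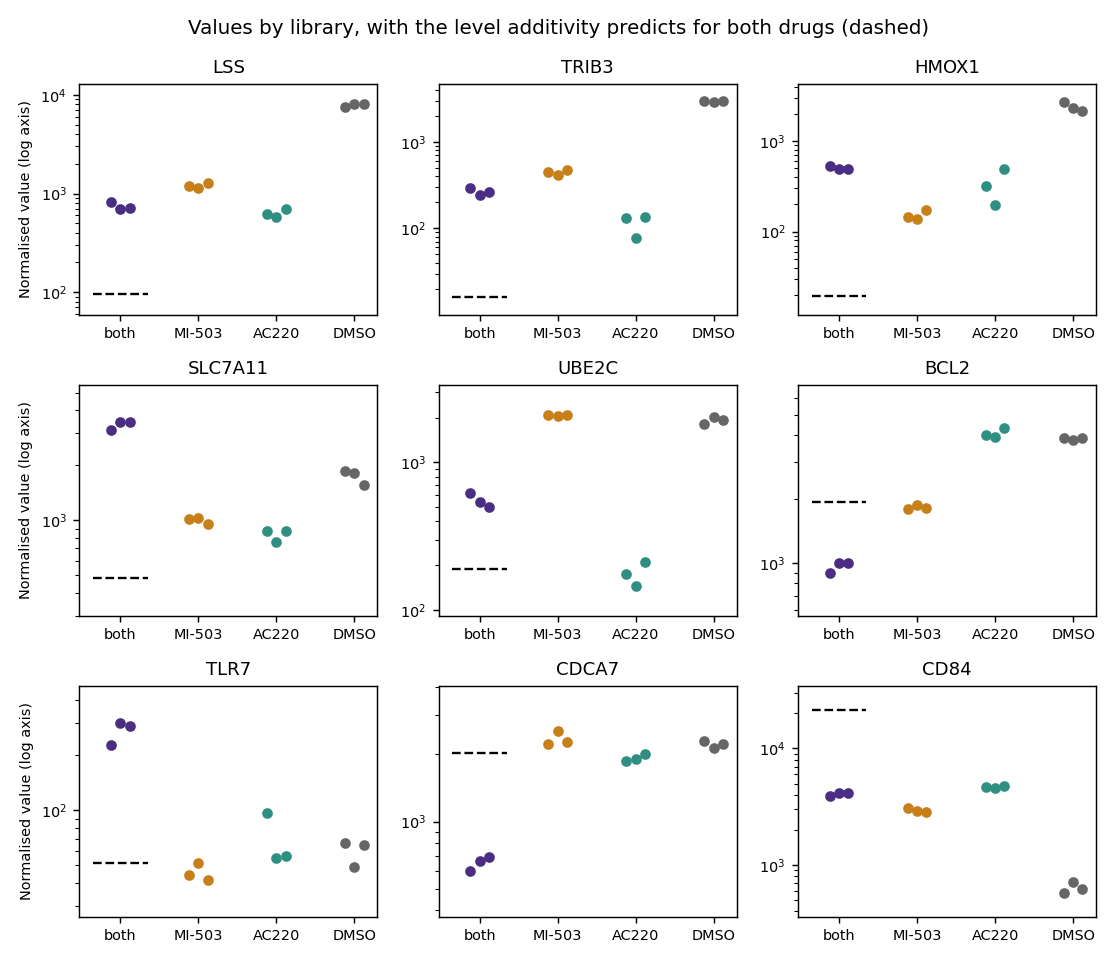
Normalised values (log axis) of 9 genes in each of the 12 libraries, 1 point a library, with the groups in the order combination (both), MI-503, AC220 and DMSO; the dashed line is the level that additivity predicts for the combination. LSS, TRIB3, HMOX1, SLC7A11, UBE2C and TLR7 lie above the line with the combination, and BCL2, CDCA7 and CD84 lie below it.

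The amino-acid stress genes of ATF4, the transcription factor that answers shortage of amino acids, followed the same pattern. Of 29 tested members 27 were higher than additive, 1 (VLDLR, a departure of -0.76, adjusted p = 1.46e-08, named after its value was seen) was lower and 1 did not pass, with a median of 1.17. The median changes against DMSO were -1.53 with the combination, -1.11 with MI-503 and -1.52 with AC220, with a median sum of -2.64. ATF4 itself departed by 0.87 and ASNS, which makes asparagine, by 1.43.

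TRIB3 (chr20:380760-397559), a pseudokinase induced by ATF4, had 293, 240 and 260 with the combination, 449, 418 and 466 with MI-503, 132, 76.6 and 135 with AC220, against 2937, 2875 and 2938 with DMSO. The 4 groups did not overlap, and the combination stood between the single drugs. Additivity predicted 16.1, and the departure was 3.95 ± 0.189 (adjusted p = 1.04e-13). SLC7A11 (chr4:138164097-138242349), the cystine importer that feeds glutathione synthesis, had 3112, 3443 and 3449 with the combination, 1012, 1033 and 956 with MI-503, 873, 761 and 877 with AC220, against 1859, 1819 and 1562 with DMSO. It fell with each drug alone and rose with the combination, by 0.94 on the log2 scale against DMSO (adjusted p = 4.54e-12), and every combination library was above every other library. Its departure was 2.79 ± 0.0936 (adjusted p = 2.19e-16). Its antisense gene SLC7A11-AS1 overlaps it and the strand of counting is not stated, so their reads cannot be told apart.

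CHAC1, which degrades glutathione, is shown with its promoter because it carries a composite C/EBP-ATF element, the site type through which ATF4 acts. It was named after its values were seen. The sequence covers the 250 bases before the gene's start (RefSeq, GRCh38.p14, chr15:40953221-40953470, plus strand, 5′ to 3′), and the capitals mark TTNCATCA, the reverse complement of the searched motif TGATGNAA.
CHAC1: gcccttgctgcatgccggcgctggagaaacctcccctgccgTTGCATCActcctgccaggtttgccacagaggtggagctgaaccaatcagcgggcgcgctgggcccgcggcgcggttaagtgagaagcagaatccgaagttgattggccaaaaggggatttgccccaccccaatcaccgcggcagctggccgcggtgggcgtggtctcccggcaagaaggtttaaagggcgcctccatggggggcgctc
Both strands were searched, and 3 of 24 promoters of the list (12.5%), those of ASNS, ATF3 and CHAC1, held the motif, against 3.19% of all 27305 promoters of this length. A match is a string of letters and was not tested as a bound site. CHAC1 had 27.1, 34.6 and 25.6 with the combination, 55.1, 56.5 and 43.8 with MI-503, 30.7, 31.8 and 31.0 with AC220, against 205, 194 and 192 with DMSO. It departed by 1.81 ± 0.224 (adjusted p = 6.7e-07), and the combination and AC220 did not differ past the test (-0.11, adjusted p = 0.59). ATF3, a stress-induced partner of ATF4, departed by 2.93 ± 0.257 (adjusted p = 2.73e-09), with 82.1 to 135 with the combination, 82.2 to 103 with MI-503, 64.3 to 113 with AC220 and 498 to 730 with DMSO, where the 3 treated groups overlap.

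Antioxidant genes under the transcription factor NRF2 had 16 of 19 tested members higher than additive and 0 lower, with a median of 0.85. At the floor were 3 of these members, and of the other 16, 13 were higher, with a median of 0.57. HMOX1 (chr22:35381096-35394207), which breaks down haem, had the largest departure of any named gene off the floor. Its values were 535, 486 and 489 with the combination, 146, 139 and 173 with MI-503, 321, 198 and 492 with AC220, against 2695, 2330 and 2143 with DMSO. The combination libraries were above all MI-503 libraries, overlapped 1 AC220 library and were far below DMSO. Additivity predicted 19.4, and the departure was 4.63 ± 0.253 (adjusted p = 9.68e-13). FTH1, the heavy chain of ferritin, had 25382, 23581 and 24116 with the combination, 9927, 9960 and 10921 with MI-503, 18882, 18342 and 20223 with AC220, against 23550, 23077 and 23927 with DMSO. With the combination it overlapped DMSO, and both single-drug groups were lower, so its departure was 1.54 ± 0.0623 (adjusted p = 5.53e-15).

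The promoter of ME1, the malic enzyme that makes NADPH, is shown as the NRF2 example, chosen after its values were seen (RefSeq, GRCh38.p14, chr6:83431052-83431301, minus strand, 5′ to 3′). The capitals mark a match to TGACNNNGC, the antioxidant response element.
ME1: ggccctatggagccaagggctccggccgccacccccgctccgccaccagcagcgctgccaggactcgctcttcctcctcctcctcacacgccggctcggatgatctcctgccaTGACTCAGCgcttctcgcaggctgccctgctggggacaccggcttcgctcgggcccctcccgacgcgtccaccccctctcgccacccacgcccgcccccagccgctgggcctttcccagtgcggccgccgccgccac
This motif was found on either strand in 4 of 13 promoters of the list (30.8%) and in 11% of all promoters. ME1 had 68.8, 81.4 and 76.9 with the combination, 38.1, 51.6 and 46.7 with MI-503, 48.0, 37.8 and 63.8 with AC220, against 98.0, 65.2 and 93.8 with DMSO. The combination libraries were above all libraries of both single drugs and overlapped DMSO, and the departure was 1.51 ± 0.267 (adjusted p = 7.36e-05).

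Genes downstream of FLT3 were next examined by pathway. Of 15 tested genes that report ERK activity, 13 were higher than additive and 0 lower (1, MYC, without combination replicate 1, MI-503 replicate 2, AC220 replicate 3 or DMSO replicate 3), but 6 of the 15 were at the floor, and 8 of the other 9 were higher. The median departure was 1.79 over the 15 and 1.32 over those 9. EGR1, an immediate-early transcription factor, had 33.8, 49.8 and 56.4 with the combination, 34.1, 33.1 and 49.7 with MI-503, 36.5, 29.8 and 48.8 with AC220, against 296, 240 and 282 with DMSO. The 3 treated groups overlapped throughout, and the departure of 3.07 ± 0.282 (adjusted p = 5.93e-09) is the distance to the additive level of 4.56. DUSP6, the phosphatase that feeds back on ERK, had 41.7, 26.5 and 34.9 with the combination, 258, 211 and 250 with MI-503, 34.5, 31.8 and 28.2 with AC220, against 1150, 1335 and 1235 with DMSO. The combination overlapped AC220 (difference 0.10, adjusted p = 0.551), and the departure was 2.47 ± 0.194 (adjusted p = 4.48e-10). ETV5, an ERK-dependent transcription factor, was somewhat higher with the combination, at 155, 138 and 145, than with AC220, at 122, 100 and 120, a difference of 0.35 (adjusted p = 0.000582), and departed by 1.32 ± 0.112. DUSP5 and PHLDA1 departed by 2.94 and 2.68.

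Of 16 tested STAT5 targets, 8 were higher than additive, 1 lower and 7 did not pass, with a median of 0.44. Over all genes 20.9% were higher and 21.6% lower. PIM1, a survival kinase, had 1477, 1390 and 1310 with the combination, 2325, 2250 and 2216 with MI-503, 542, 541 and 562 with AC220, against 3348, 3569 and 3901 with DMSO. No 2 groups overlapped, and the combination was higher than AC220 by 1.34 on the log2 scale (adjusted p = 1.84e-15), with a departure of 2.01 ± 0.0791 (adjusted p = 3.48e-15). CISH, a feedback inhibitor of cytokine signalling, departed by 0.38 ± 0.0977 (adjusted p = 0.00296). SOCS2, another feedback inhibitor, went the other way. It had 460, 535 and 569 with the combination, 1000, 1015 and 871 with MI-503, 892, 772 and 828 with AC220, against 1052, 1050 and 1046 with DMSO, below every other group, and departed by -0.55 ± 0.105 (adjusted p = 0.000197). SOCS3 departed by 2.06 ± 0.274 (adjusted p = 1.72e-06). CISH overlaps MAPKAPK3, and SOCS2 overlaps SOCS2-AS1.

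Of 17 tested NF-kappaB and inflammatory genes 12 were higher than additive and 3 lower, with a median of 0.95. Over all genes 20.9% were higher and 21.6% lower, so the share of the list that was lower was not above that of all genes. Of the 14 off the floor, 10 were higher and 3 lower, with a median of 0.68. The 3 lower ones, named after their values were seen, were NFKBIA (-0.51) and NFKBIE (-0.35), inhibitors of NF-kappaB, and BCL3 (-0.51), a nuclear protein of the same family. ICAM1, an adhesion receptor, had 257, 239 and 216 with the combination, 126, 115 and 123 with MI-503, 126, 119 and 106 with AC220, against 300, 324 and 281 with DMSO. Both single drugs lowered it further than the combination did, which lay just below DMSO without overlapping it, and the departure was 2.32 ± 0.143 (adjusted p = 7.99e-12). IL1B, the cytokine, departed by 3.46 ± 0.241 (adjusted p = 5.81e-11), at 41.0 to 58.0 with the combination, 38.0 to 43.8 with MI-503, 26.3 to 41.3 with AC220 and 266 to 299 with DMSO. Its additive level was 3.61, near no reads. TNFAIP3, which ends NF-kappaB signalling, departed by 2.13 ± 0.114 (adjusted p = 6.1e-13).

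Genes of mitosis differed from the metabolic lists in their single-drug changes. Their median change against DMSO was -1.82 with the combination, -0.06 with MI-503 and -2.90 with AC220. Of 32 tested, 31 were higher than additive, and PRC1 did not pass (0.15, adjusted p = 0.0694), with a median departure of 1.20. Of the 32, 31 were also higher with the combination than with AC220 alone, against 27.4% of all genes, with a median difference of 1.14. So adding MI-503, which by itself moved these genes little, left them less reduced than AC220 alone did.

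UBE2C (chr20:45812644-45816952), which works with the anaphase-promoting complex, had 616, 541 and 499 with the combination, 2083, 2054 and 2095 with MI-503, 176, 146 and 210 with AC220, against 1813, 2024 and 1935 with DMSO. The combination libraries lay between AC220 and the other groups with no overlap. The departure was 1.53 ± 0.129 (adjusted p = 1.53e-09), and the difference from AC220 was 1.64 (adjusted p = 3.4e-13). NUF2, of the kinetochore, had 258, 314 and 343 with the combination against 99.8, 107 and 152 with AC220, and departed by 1.51 ± 0.164. KIF2C, a kinesin that takes microtubules apart, had 1025, 1066 and 1107 with the combination against 395, 342 and 407 with AC220, and departed by 1.47 ± 0.0853.

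The promoters of MKI67, the proliferation marker Ki-67, and ESPL1, the protease separase, are shown because many, though not all, promoters of the list hold the same short motif. Both genes were picked after their values were seen. The 250 bases before each start come from RefSeq, GRCh38.p14, and lie at chr10:128126424-128126673 on the minus strand and at chr12:53268049-53268298 on the plus strand. Capitals mark TTTGAA, the core of the cell cycle homology region through which mitotic genes are repressed outside division.
MKI67: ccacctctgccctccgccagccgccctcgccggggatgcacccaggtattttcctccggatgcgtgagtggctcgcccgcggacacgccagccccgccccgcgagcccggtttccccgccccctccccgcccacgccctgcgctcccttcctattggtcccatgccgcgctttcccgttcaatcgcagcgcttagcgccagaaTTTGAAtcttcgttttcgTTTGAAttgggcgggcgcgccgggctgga
ESPL1: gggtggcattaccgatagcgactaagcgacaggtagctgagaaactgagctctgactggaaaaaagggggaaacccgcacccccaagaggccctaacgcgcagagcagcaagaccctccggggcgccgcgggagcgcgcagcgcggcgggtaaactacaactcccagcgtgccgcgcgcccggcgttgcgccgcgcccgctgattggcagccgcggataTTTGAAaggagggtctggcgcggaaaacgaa
TTTGAA was found on either strand in 16 of 27 promoters of the list (59.3%), against 13.6% of all 27305 promoters. The list was chosen as genes of mitosis, and a link between the motif and the departure was not tested. MKI67 holds 2 copies, 47 and 29 bases before the start, and ESPL1 holds 1, 31 bases before it. MKI67 had 4678, 4989 and 4726 with the combination, 16004, 17315 and 16799 with MI-503, 1820, 1686 and 2042 with AC220, against 16668, 17049 and 17550 with DMSO. Its departure was 1.41 ± 0.0738 (adjusted p = 4.07e-13). ESPL1 had 590, 575 and 506 with the combination against 197, 154 and 195 with AC220, and departed by 1.47 ± 0.11 (adjusted p = 2.23e-10).

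DNA replication genes fell to a similar depth with AC220, but departed less. The median change was -2.25 with the combination, -0.20 with MI-503 and -2.40 with AC220. Of 39 tested, 27 were higher than additive and 2 lower, with a median departure of 0.33. Against AC220 alone 21 were higher and 9 lower. RRM2, the small subunit of ribonucleotide reductase, had 627, 694 and 732 with the combination, 4004, 4169 and 3972 with MI-503, 498, 369 and 454 with AC220, against 7252, 6841 and 7405 with DMSO, a departure of 1.47 ± 0.106 (adjusted p = 1.19e-10). CDC6 and MCM10, which load and start the replicative helicase, departed by 1.26 ± 0.137 and 1.16 ± 0.191. The 2 lower ones, named after their values were seen, were MCM3 (-0.44), of the helicase ring, and POLD2 (-0.41), of DNA polymerase delta.

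**Figure D3:**
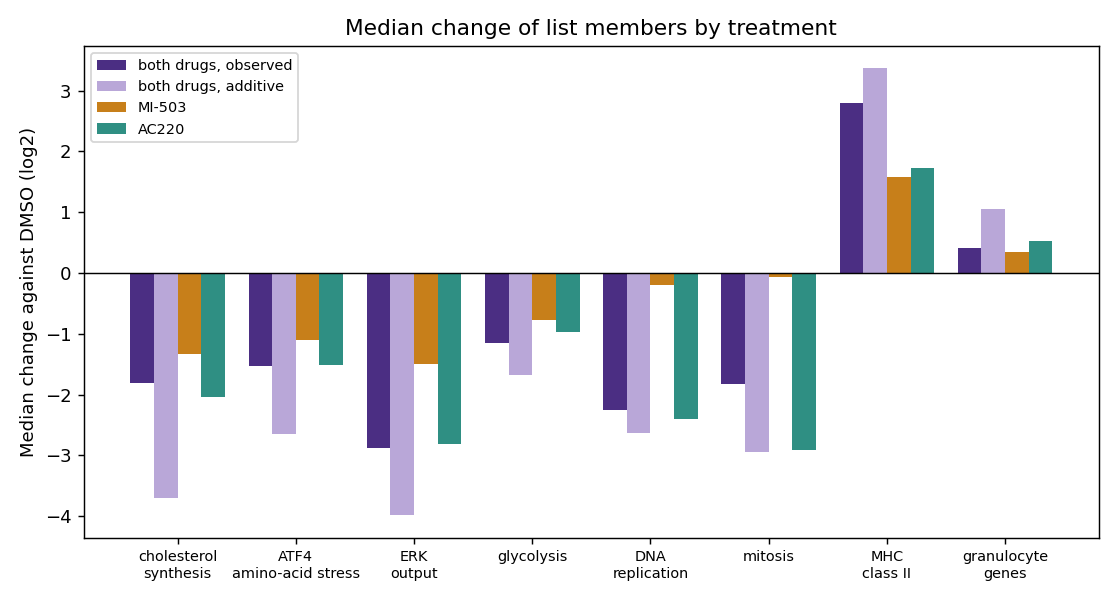
Bars give, for 8 gene lists, the median over members of the log2 change against DMSO with the combination as observed, with the combination if the single changes add, with MI-503 and with AC220. The observed bar is shorter than the additive one in all 8 lists, and it is also shorter than the AC220 bar for mitosis (-1.82 and -2.90), cholesterol synthesis (-1.81 and -2.04), DNA replication (-2.25 and -2.40) and granulocyte genes (0.42 and 0.53).

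Among regulators of the cell cycle, CCND3 (cyclin D3) had 2709, 2417 and 2341 with the combination, 2876, 2661 and 2615 with MI-503, 2414, 2486 and 2348 with AC220, against 5270, 5462 and 5664 with DMSO. All 3 treatments brought it to a like level, with a departure of 1.05 ± 0.0737 (adjusted p = 6.84e-11). CDK6, the kinase partner of D cyclins, had 3540, 3941 and 4278 with the combination, 7679, 8209 and 7245 with MI-503, 14869, 13817 and 13921 with AC220, against 16061, 14599 and 15117 with DMSO. Its combination libraries were the lowest of all, and its departure was -0.88 ± 0.0798 (adjusted p = 5.16e-09). CDKN1A (p21) and CDKN1B (p27), inhibitors of these kinases, departed by 0.36 and 0.45, but both were lower with the combination than with DMSO. CDKN1A had means of 2019 with the combination, 3369 with MI-503, 2776 with AC220 and 5927 with DMSO. For CDKN1B the means were 1650, 1297, 2478 and 2658 in the same order.

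Glycolysis had 20 of 25 members higher than additive and 0 lower, with a median of 0.59, and the unfolded protein response had 20 of 21 higher and 0 lower, with a median of 0.47. ALDOC, an aldolase, had 489, 422 and 399 with the combination, 872, 515 and 608 with MI-503, 1034, 701 and 1049 with AC220, against 8676, 10754 and 10414 with DMSO. It was lowest with the combination and still departed by 2.86 ± 0.2 (adjusted p = 6.44e-11). SLC2A3, a glucose importer, had 388, 379 and 366 with the combination, 343, 328 and 356 with MI-503, 168, 161 and 180 with AC220, against 793, 740 and 814 with DMSO, and departed by 2.34 ± 0.104. HERPUD1, which clears misfolded proteins from the endoplasmic reticulum, departed by 1.23 ± 0.0583. Aminoacyl-tRNA synthetases had 10 of 19 higher and 4 lower, with a median of 0.21, where 20.9% of all genes were higher and 21.6% lower. The share that was lower was near that of all genes. AARS (alanyl-tRNA synthetase) departed by 1.22 ± 0.0776.

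Of 23 tested MLL fusion targets outside the HOX cluster, 5 were higher and 8 lower than additive, with a median of -0.10, where 20.9% of all genes were higher and 21.6% lower. The share that was higher was near that of all genes. Their median change was -0.66 with the combination, -0.81 with MI-503 and 0.18 with AC220. MEIS1 (chr2:66435125-66573869), the cofactor of HOX proteins, had 690, 808 and 679 with the combination, 461, 449 and 456 with MI-503, 2853, 2895 and 2964 with AC220, against 2312, 2225 and 2255 with DMSO. The combination was well below DMSO and AC220 but above every MI-503 library, and the departure was 0.31 ± 0.0814 (adjusted p = 0.00373). HOXA9 had 723, 775 and 770 with the combination, 535, 584 and 522 with MI-503, 2019, 1832 and 2034 with AC220, against 2146, 1956 and 1940 with DMSO, and departed by 0.51 ± 0.0843 (adjusted p = 3.56e-05). Its reads cannot be told from those of the read-through gene HOXA10-HOXA9. MEF2C and PBX3, further transcription factors of this program, had departures of 0.05 ± 0.0813 (adjusted p = 0.627) and 0.12 ± 0.068 (adjusted p = 0.176), with intervals of -0.11 to 0.22 and -0.02 to 0.26. The MEF2C value was -0.01 without MI-503 replicate 3.

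FLT3 itself had 13157, 14271 and 14125 with the combination, 9306, 9580 and 9335 with MI-503, 28812, 29640 and 29909 with AC220, against 16486, 16722 and 17851 with DMSO. MI-503 lowered it and AC220 raised it, and the combination stood between MI-503 and DMSO, at a departure of -0.23 ± 0.0567 (adjusted p = 0.00176). MYB, a transcription factor of progenitors, had 10010, 10684 and 10734 with the combination, 13481, 14318 and 13836 with MI-503, 17515, 17994 and 17578 with AC220, against 17624, 17050 and 18071 with DMSO. It was lowest with the combination and departed by -0.42 ± 0.0548 (adjusted p = 1.58e-06). IGF2BP2, an RNA-binding protein, had 1166, 1234 and 1235 with the combination, 1856, 1868 and 1874 with MI-503, 4531, 4701 and 4565 with AC220, against 3815, 3769 and 3871 with DMSO, with a departure of -0.89 ± 0.0589 (adjusted p = 2.62e-11). KIT, a receptor kinase of the FLT3 family, departed by -0.64 ± 0.153 (adjusted p = 0.0016), although the combination raised it. Its means were 477 with the combination, 119 with MI-503, 645 with AC220 and 104 with DMSO.

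MYC, the growth regulator, fell with each drug and fell furthest with the combination. It had 2888, 2726 and 2774 with the combination, 8573, 7970 and 8234 with MI-503, 5894, 5652 and 5500 with AC220, against 14591, 15249 and 15647 with DMSO. The 4 groups did not overlap. Additivity predicted 3093, and the departure was -0.15 ± 0.0592, with an interval of -0.27 to -0.02 and an adjusted p of 0.0507, just short of the threshold.

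Genes of the BCL2 family, which decide whether mitochondria release death signals, departed in both directions. BCL2 (chr18:63123346-63320090), a protector and MLL fusion target, had 900, 999 and 993 with the combination, 1788, 1879 and 1810 with MI-503, 4041, 3956 and 4341 with AC220, against 3893, 3793 and 3888 with DMSO. AC220 alone did not change it past the test (0.09, adjusted p = 0.0953), MI-503 alone lowered it, and every combination library was below every MI-503 library. Additivity predicted 1945, and the departure was -1.01 ± 0.0692 (adjusted p = 4.29e-11). MCL1, another protector, had 5552, 5787 and 5889 with the combination, 6360, 6221 and 5765 with MI-503, 5692, 5483 and 5969 with AC220, against 9733, 9110 and 9011 with DMSO, and departed by 0.61 ± 0.0641 (adjusted p = 5.3e-08).

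Of 11 tested genes that promote death, 6 were higher than additive and 4 lower, where 20.9% of all genes were higher and 21.6% lower. BMF, which neutralises BCL2, had 10484, 10139 and 9636 with the combination, 4592, 4836 and 4923 with MI-503, 9701, 9818 and 9389 with AC220, against 3231, 3920 and 3327 with DMSO. The combination and AC220 did not differ past the test (0.07, adjusted p = 0.322), and the departure was -0.39 ± 0.077. BCL2L11 (BIM) had 1223, 1180 and 1279 with the combination, 896, 938 and 942 with MI-503, 1012, 994 and 988 with AC220, against 1000, 966 and 1040 with DMSO. Its combination libraries were the highest of all, with a departure of 0.41 ± 0.0742 (adjusted p = 9.09e-05). PMAIP1 (NOXA) departed by 1.18 ± 0.174 and BNIP3, a mitophagy receptor that overlaps PPP2R2D, by 1.90 ± 0.137. BNIP3 fell with every treatment, to means of 106 with the combination, 94.2 with MI-503 and 179 with AC220, against 594 with DMSO.

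Genes of myeloid maturation were set apart by lineage. Of 17 tested granulocyte genes 10 were lower than additive and 2 higher (4 without AC220 replicate 3), with a median of -0.40. CXCR2, the receptor for neutrophil chemokines, had 751, 754 and 718 with the combination, 861, 823 and 865 with MI-503, 1098, 1179 and 1091 with AC220, against 483, 521 and 525 with DMSO. The combination stayed below each single drug, and the departure was -1.33 ± 0.0816 (adjusted p = 6.66e-12). MPO, the granule peroxidase, departed by -0.48 ± 0.153 (adjusted p = 0.0143), and without AC220 replicate 1 by -0.37 (adjusted p = 0.0539).

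Of 26 monocyte and macrophage genes 9 were higher and 5 lower than additive, with a median of 0.17. Over all genes 20.9% were higher and 21.6% lower, and the share that was lower was near this. Of the 22 members off the floor 7 were higher and 5 lower, with a median of 0.06. Against AC220 alone, 22 of the 26 were higher with the combination, where 27.4% of all genes were. LYZ (lysozyme) had 181590, 182142 and 183690 with the combination, 168981, 180664 and 179309 with MI-503, 53388, 55297 and 59930 with AC220, against 31405, 29057 and 29629 with DMSO. The combination and MI-503 did not differ past the test (0.05, adjusted p = 0.313), and the departure was -0.85 ± 0.0614 (adjusted p = 1.04e-10). ITGAX (CD11c) had 4625, 4575 and 4439 with the combination, 1804, 1530 and 1484 with MI-503, 2010, 1929 and 1784 with AC220, against 1842, 2182 and 1838 with DMSO. Only the combination raised it, and its libraries stood far above the rest, with a departure of 1.54 ± 0.096 (adjusted p = 9.34e-12). CD86, a co-stimulatory ligand, had 1104, 1195 and 1128 with the combination, 352, 323 and 341 with MI-503, 521, 449 and 444 with AC220, against 330, 485 and 391 with DMSO, a departure of 1.51 ± 0.137 (adjusted p = 4.68e-09). CSF1R, the receptor for macrophage growth factor, did not depart past the test, at 0.04 ± 0.0653 (adjusted p = 0.629), with an interval of -0.09 to 0.18. Its sign turned under equal library totals (-0.0047) and without DMSO replicate 3 (-0.0040).

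MHC class II genes, which present antigen, rose with each treatment, by medians of 2.79 with the combination, 1.58 with MI-503 and 1.73 with AC220. Of 9 tested members 6 were lower than additive and 0 higher, with a median departure of -0.64. HLA-DRA had 1366, 1317 and 1328 with the combination, 645, 622 and 598 with MI-503, 765, 738 and 667 with AC220, against 154, 208 and 186 with DMSO. The combination was the highest group, yet below the additive level of 2469, with a departure of -0.88 ± 0.116 (adjusted p = 1.54e-06). On the linear scale the sign turned, since the combination added more normalised units than the single drugs together, by 175. HLA-DQB1 did the same, with a departure of -1.05 ± 0.0878 on the log2 scale and an excess of 159 units on the linear one. Reads of HLA genes can be split between near-identical copies.

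**Figure D4:**
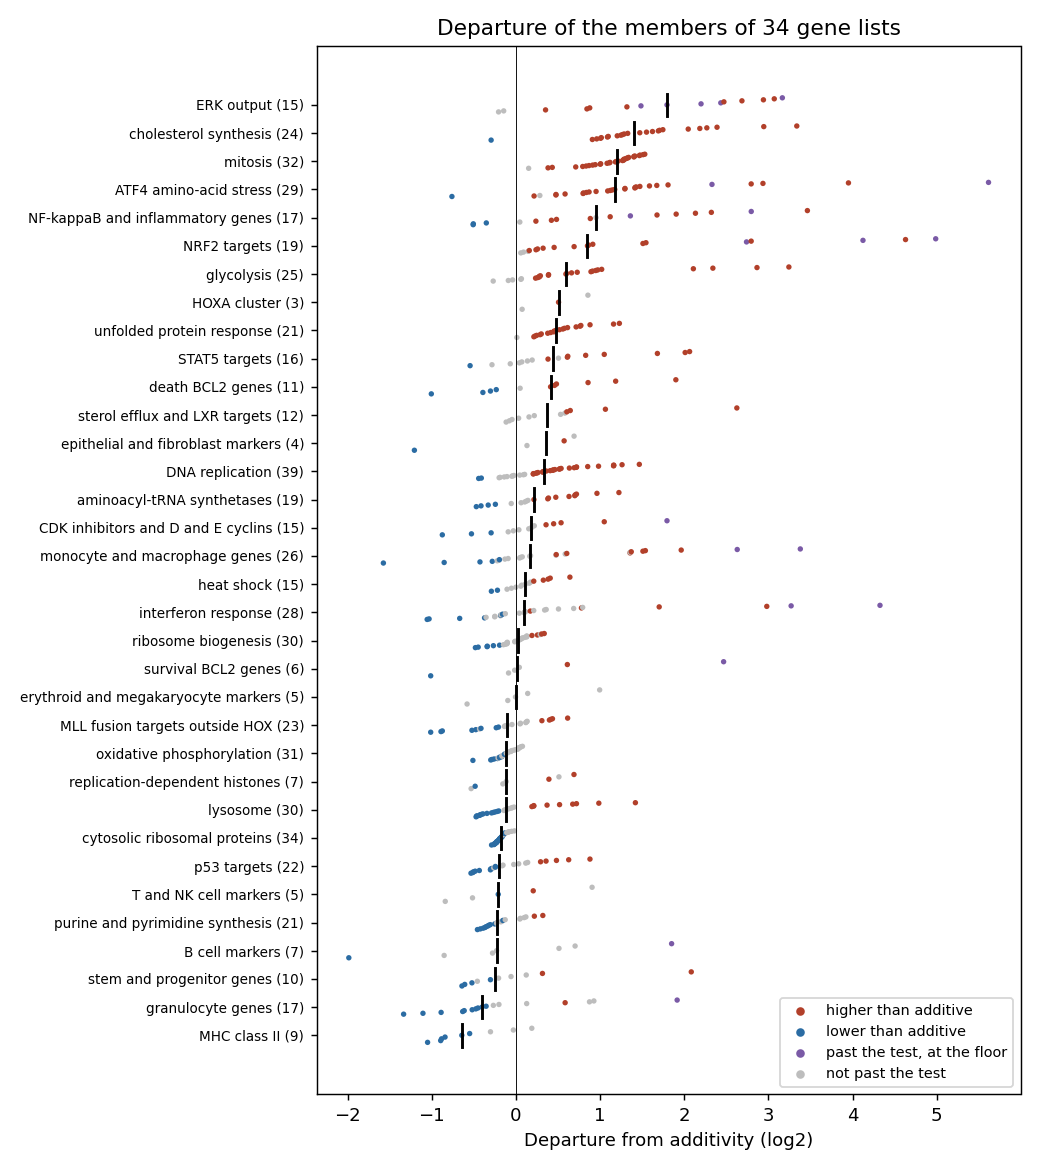
Departures (log2) of the tested members of 34 gene lists, 1 point a gene, ordered by the list median (black bar), with the number of tested members in brackets. ERK output, cholesterol synthesis, mitosis and ATF4 genes have medians from 1.17 to 1.79, and MHC class II and granulocyte genes have the lowest, -0.64 and -0.40.

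Some genes moved with the combination although neither drug moved them past its test. TLR7 (chrX:12867072-12890361), an endosomal sensor of RNA, had 227, 299 and 288 with the combination, 44.1, 51.6 and 41.9 with MI-503, 96.9, 54.7 and 56.3 with AC220, against 66.6, 49.2 and 64.5 with DMSO. Its combination libraries stood above the other 9, and the departure was 2.37 ± 0.259 (adjusted p = 9.81e-08). WIPI1, an autophagy protein, had 867, 807 and 803 with the combination, 317, 291 and 357 with MI-503, 296, 320 and 328 with AC220, against 326, 352 and 361 with DMSO, 2.83-fold above the additive level of 291 (adjusted p = 1.92e-10). JUP (plakoglobin), a junction protein, had 697, 668 and 649 with the combination, 259, 261 and 279 with MI-503, 316, 283 and 277 with AC220, against 274, 319 and 271 with DMSO, a departure of 1.31 ± 0.114. PRKAR1B, a regulatory subunit of protein kinase A, was the only gene of this kind that the naming rule allowed in the other direction, with 175, 152 and 143 with the combination, 269, 243 and 310 with MI-503, 297, 308 and 273 with AC220, against 266, 230 and 267 with DMSO, a departure of -1.01 ± 0.145.

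CDCA7 (chr2:173354872-173368997), a partner of the chromatin remodeller HELLS, had 598, 665 and 696 with the combination, 2234, 2533 and 2270 with MI-503, 1870, 1911 and 2013 with AC220, against 2308, 2131 and 2232 with DMSO. MI-503 did not change it past the test, its change was -0.20 with AC220 (adjusted p = 0.00366) and -1.77 with the combination, a departure of -1.64 ± 0.0837 (adjusted p = 2.9e-13). CGREF1, a secreted growth regulator that overlaps KHK, had 308, 314 and 268 with the combination, 1218, 1207 and 1169 with MI-503, 1001, 1024 and 1006 with AC220, against 1242, 1132 and 1276 with DMSO, a departure of -1.75 ± 0.0902. KCNQ5, a potassium channel, had 27.1, 33.6 and 36.9 with the combination, 177, 167 and 155 with MI-503, 104, 113 and 111 with AC220, against 131, 118 and 137 with DMSO, a departure of -2.09 ± 0.185. In these 3 genes the combination libraries were below all others.

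Genes that both drugs lowered and the combination lowered further than their sum by at least 2-fold were few, 4 off the floor. Smaller departures of this kind were not counted. PODXL2, a mucin-like ligand of selectins, had 95.9, 94.6 and 78.0 with the combination, 495, 512 and 510 with MI-503, 305, 280 and 267 with AC220, against 635, 579 and 634 with DMSO, a departure of -1.38 ± 0.124 (adjusted p = 4.19e-09). LDLRAD3, an endocytic receptor, departed by -1.24 ± 0.158 (adjusted p = 9.2e-07). TEX15, a gene of meiosis, departed by -1.37 ± 0.323 at 3.38 to 9.16 with the combination, and on the linear scale its sign turned, to 31.5 units above additivity.

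In the other direction, of the 6 genes that both drugs raised and the combination raised beyond the sum by at least 2-fold, the naming rule took SLC26A11, SPSB1 and SDS. SLC26A11, an anion transporter, had 545, 531 and 509 with the combination, 54.1, 62.4 and 79.8 with MI-503, 74.9, 65.7 and 68.5 with AC220, against 48.5, 41.2 and 30.3 with DMSO, a departure of 2.20 ± 0.219 (adjusted p = 2.24e-08). SPSB1, an adaptor of ubiquitin ligases, and SDS, serine dehydratase, departed by 2.18 ± 0.23 and 1.38 ± 0.358. A larger set, of 157 genes off the floor, was raised by each drug and was at least 2-fold lower than additive. In some of them, such as HLA-DQB1, the combination still lay above each single drug. CD84, a SLAM receptor of leukocytes, was 1 of the 3 largest departures that the naming rule took from this set. It had 3897, 4134 and 4133 with the combination, 3059, 2900 and 2835 with MI-503, 4626, 4618 and 4741 with AC220, against 573, 710 and 626 with DMSO. The combination lay between the single drugs and far below the additive 21525, a departure of -2.41 ± 0.0812 (adjusted p = 2.19e-16). SCARA5, a ferritin receptor with 2.01 to 2.93 in DMSO, departed by -3.11 ± 0.273 from that low base.

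Where the drugs pulled in opposite directions, the combination could side with either. EMP2, a membrane protein, had 1321, 1288 and 1323 with the combination, 1008, 949 and 1021 with MI-503, 235, 217 and 203 with AC220, against 594, 711 and 692 with DMSO, so that the fall with AC220 was not seen and the departure was 2.00 ± 0.0997 (adjusted p = 1.93e-13). CD101, an immunoglobulin-family receptor, departed by 1.79 ± 0.0846, with the combination not different from MI-503 past the test (0.10, adjusted p = 0.138). PAM, an enzyme that amidates peptides, had 12.4, 17.3 and 17.4 with the combination, 39.1, 37.0 and 32.1 with MI-503, 220, 186 and 196 with AC220, against 92.3, 96.4 and 115 with DMSO, and its departure was -2.14 ± 0.231 (adjusted p = 7.65e-08).

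Housekeeping lists are read against the 20.9% of all genes that were higher than additive and the 21.6% that were lower. Of 34 cytosolic ribosomal proteins 26 were lower and 0 higher, with a median of -0.18 and all departures between -0.29 and -0.02. RPL15 had 43374, 44111 and 43577 with the combination, 39267, 39230 and 39091 with MI-503, 39985, 41804 and 40004 with AC220, against 28989, 29525 and 30874 with DMSO, a departure of -0.29 ± 0.0504, and it overlaps NKIRAS1. Oxidative phosphorylation had 10 of 31 lower and 0 higher (6 lower without combination replicate 2 or MI-503 replicate 3, 5 without DMSO replicate 1, each below the 21.6% of all genes), purine and pyrimidine synthesis 10 of 21 lower and 2 higher, and p53 targets 10 of 22 lower and 5 higher. NDUFS3 of complex I departed by -0.51 ± 0.0626, CAD, which starts pyrimidine synthesis, by -0.42 ± 0.0666, and DDB2 and XPC, which find DNA damage, by -0.51 each. Ribosome biogenesis had 4 of 30 higher and 6 lower, neither above the share over all genes, with a median of 0.02 that became -0.02 under equal library totals, where 10 were lower.

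At the floor the scale itself limits what can be read. Of 1810 such genes 283 (15.6%) were higher and 91 (5.03%) lower than additive. Where DMSO was at or above 20, so that a drug had brought the gene down, 200 of 528 were higher and 5 lower, with a median of 0.74. Where DMSO was below 20 as well, 83 of 1282 were higher and 86 lower, with a median of -0.05. SPP1 (osteopontin) had 0, 1.02 and 1.03 with the combination, 0, 0.974 and 0.974 with MI-503, 3.84, 3.98 and 1.88 with AC220, against 392, 225 and 377 with DMSO. KLHDC7B, a kelch-domain gene, was at 0 in all AC220 libraries and at most 1.95 in any treated library, against 161, 90.3 and 110 with DMSO. Their fitted departures, 6.32 and 6.73, depend on the pseudocount of 1 and are no bound. SERPINB10, a leukocyte serpin, was the sole gene lower than additive that the rule named here, with 63.2, 57.0 and 70.8 with the combination, 198, 185 and 185 with MI-503, 6.72, 7.96 and 10.3 with AC220, against 6.66, 6.02 and 6.84 with DMSO, a departure of -1.86 ± 0.285. CD14, the monocyte receptor, had 27.1, 28.5 and 22.6 with the combination and 1.92, 0 and 0 with AC220.

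**Figure D5:**
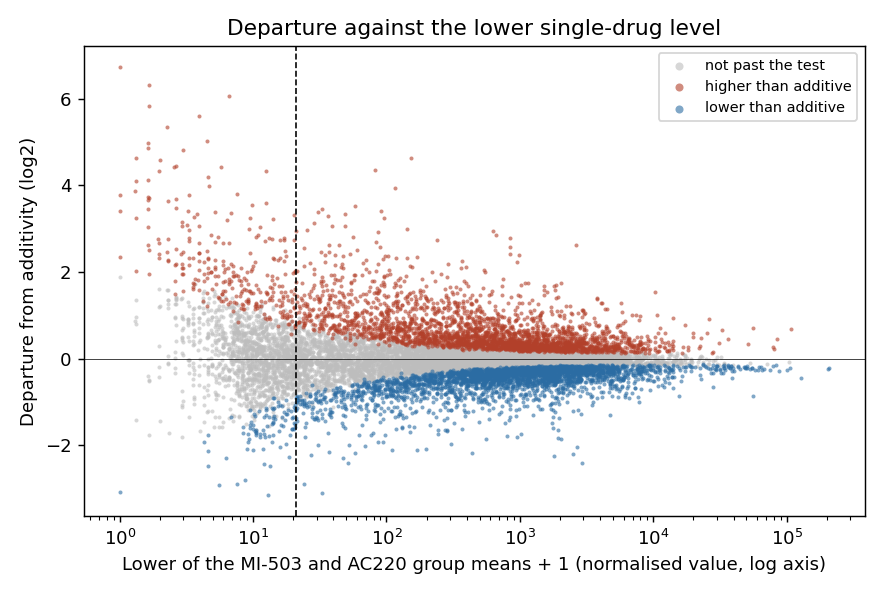
Departure (log2) against the lower of the MI-503 and AC220 group means plus 1 (normalised value, log axis), 1 point a gene, with the dashed line at the floor. Left of the line most called genes lie above 0 (283 against 91), and right of it calls lie on both sides (2731 against 3028).

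Just inside the floor, with the lower single-drug mean from 15 to 20, 47 of 74 called genes were higher than additive, with a median departure of 0.96. Just outside it, from 20 to 25, 35 of 65 were higher, with a median of 0.79. Additivity was also judged on the linear scale, where the differences in normalised units add. There the sign was the same for 2706 of the 2731 genes called higher and 2880 of the 3028 called lower, off the floor. Past 2-fold it was the same for 466 of 470 and 196 of 212. For a gene that both drugs moved the same way, the linear prediction lies below the log2 one. A higher departure of such a gene keeps its sign by arithmetic, as for the 296 of the 470 that each drug lowered. Their agreement is no separate support. MEIS1 was 370 units below additivity on the linear scale, against 0.31 above it on the log2 scale.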

How the data were processed

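RNA-seq of 12 MV411 libraries was analysed (polyA RNA, paired reads of 50 bases). The deposited values are a normalised signal per gene. Per the submitters' processing notes they were made with DESeq version 2 on hg38, and aligner, counting program and annotation are not given in the sources used here. Every value was a whole number divided by 1 factor per library (100% within 0.001). These factors were the median-ratio factors of the genes themselves, although the table's name carries the spike-in that the labels describe. Reads were recovered from them. In total 0 columns were left out.

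limma 3.58.1 (R 4.3.3) was fitted to log2(value + 1) of the 12 libraries as 4 groups, with a variance trend and two-sided tests adjusted by Benjamini-Hochberg over 14421 genes, at a threshold of 0.05. No replicate block was used. Errors are standard errors of the fit and intervals are 95%. Pairs of replicates differed beyond counting noise (chi-square divided by its degrees of freedom, 2.45 to 9.41 in 12 pairs).

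Genes named were 26 fixed by name, up to 3 per class of single-drug effects and direction with the largest 2-fold departures off the floor (highest group mean at least 100, the 3 combination libraries on 1 side of the additive level), the 3 largest per direction at the floor, and up to 3 per list of 34 lists. The genes, the lists and the comparison were chosen with earlier results of these data known. Reads of overlapping genes (SREBF1, FTH1, MEF2C, CD86, CD14, WIPI1 and CCNE2 among those analysed) cannot be told apart, as the strand of counting is not stated. Positions and promoters come from RefSeq, GRCh38.p14. The sterol regulatory element, TCACNCCAC, was also searched, in promoters of the cholesterol synthesis list. It was found in 1 of 18 (5.56%), that of SREBF2, against 0.875% of all 27305 promoters.

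Alternatives were edgeR 4.0.16 and DESeq2 1.42.0 on the recovered reads, TMM factors, equal totals, pseudocounts of 0.5 and 8, a minimum of 50 or no filter, no trend, other floors, a threshold of 0.01, and each library left out. The scripts were tested on simulated data.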

Additional observations from a re-analysis of the deposited data

How the results depend on the processing

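Counts of called genes over the whole table stayed within 1.5 times the main count under every alternative run. Against 6133 genes, edgeR called 6137 (6056 of them shared, with the same sign) and DESeq2 5656 (5647 shared). Equal library totals gave 6340, TMM factors 6145, pseudocounts of 0.5 and 8 gave 6100 and 6232, a minimum of 50 gave 5854, no filter 5948, no variance trend 5657 and a threshold of 0.01 gave 4506. Leaving out 1 library gave 5586 to 6431 genes, 2770 to 3163 of them higher and 2816 to 3268 lower. Off the floor, leaving out 1 library gave 2509 to 2891 higher and 2742 to 3182 lower, and past 2-fold 451 to 484 higher and 212 to 234 lower. Equal totals moved the median departure to -0.07 and the split of calls to 2578 higher and 3762 lower. The median of survival BCL2 genes was 0.01 and became -0.04 there, and 4 DNA replication genes and 1 glycolysis gene were lower than additive. Without a variance trend 6 oxidative phosphorylation genes were lower, and with a minimum of 50, 1 granulocyte gene was higher.

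The replicate block gave 6131 genes (6025 shared), and changed no call of a gene named by the rule. The labels do not say what same-numbered libraries share, and they were not treated as pairs, since their deviations correlated at -0.08 to 0.12 over 18 pairs, 1 of them over 0.1.

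For single genes, 7 values turned sign. On the linear scale these were MEIS1 (-370), HLA-DQB1 (159), HLA-DRA (175) and TEX15 (31.5). On the log2 scale they were MEF2C without MI-503 replicate 3 (-0.013) and CSF1R under equal totals (-0.0047) and without DMSO replicate 3 (-0.0040). Leaving out 1 library gave MEF2C values of -0.013 to 0.119 and CSF1R values of -0.0040 to 0.0881. The cause was not tested. MYC passed the threshold under 7 alternatives, with an adjusted p of 0.00786 under equal totals and 0.0377 with TMM factors, and MPO lost it once. Depth limits the floor, where the median standard error was 0.478 against 0.0936 elsewhere.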

Other observations

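Of 30 tested lysosome genes 9 were higher and 13 lower than additive, with a median of -0.12. With the combination 25 were higher than with AC220 alone, where 27.4% of all genes were. CTSS, a cathepsin of antigen-presenting cells, had 5374, 5638 and 5680 with the combination, 3465, 3540 and 3436 with MI-503, 4010, 4011 and 3844 with AC220, against 1668, 1936 and 1748 with DMSO, and departed by -0.47 ± 0.0679. Of 28 interferon response genes 6 were higher and 6 lower, with a median of 0.10, close to the shares over all genes (20.9% and 21.6%). Of 12 sterol efflux and LXR targets 4 were higher and 0 lower, with a median of 0.37, or 0.19 over the 10 off the floor.

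Genes changed by 1 drug only also departed. RIN2, an activator of Rab5, had 255, 239 and 243 with the combination, 95.2, 82.8 and 94.4 with MI-503, 48.9, 39.8 and 31.9 with AC220, against 82.8, 80.3 and 74.3 with DMSO, so that it fell with AC220 and rose with the combination, a departure of 2.41 ± 0.197. SGK1, a kinase induced by glucocorticoids, moved in the same way, with a departure of 2.56 ± 0.332. LILRB3, an inhibitory receptor of myeloid cells, had 390, 360 and 326 with the combination, 25.1, 20.5 and 31.2 with MI-503, 73.9, 77.6 and 109 with AC220, against 33.3, 25.1 and 26.4 with DMSO, a departure of 2.20 ± 0.246. DAPK1, a kinase of cell death, departed by 1.93 ± 0.198. SLC9A7, an exchanger of organelle membranes, had 72.2, 62.1 and 57.5 with the combination against 306, 253 and 288 with AC220, 45.8 to 55.1 with MI-503 and 32.4 to 51.2 with DMSO, so that the rise with AC220 was nearly absent and the departure was -2.40 ± 0.222.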
